A study of Mus musculus with 2 samples.

Results

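The genes that carry the core of transforming growth factor-β (TGF-β) signalling were examined for accessible sites that differ between PDGFRα+ and CD137+ fat progenitors. They are the ligand genes Tgfb1, Tgfb2 and Tgfb3, the receptor genes Tgfbr1, Tgfbr2 and Tgfbr3, and the SMAD genes Smad2, Smad3, Smad6 and Smad7. A peak was taken when its centre lay in the RefSeq span of one of these genes or within 100 kb of it. This gave 45 of 22485 listed peaks, 22 of the 8002 in the PDGFRα list and 23 of the 14483 in the CD137 list. All 10 genes had at least 1 peak, and no peak fell in the windows of more than 1 of them.

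Both groups were adipose progenitors of C57BL/6 mice, separated by magnetic sorting for PDGFRα (also called CD140a) or for CD137, the protein of Tnfrsf9. Each group was cultured, driven towards fat cells with a cocktail and then given dexamethasone, a synthetic glucocorticoid, at 1 µM. Each gave 1 ATAC-seq library. No untreated sample was analysed here, so no value measures an effect of the drug. The labels name SAT or VAT as the source without tying either to a cell group, so depot and cell group cannot be told apart. Nor do they say whether animals were pooled. The extraction text of the labels speaks of embryonic cells.

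TGF-β ligands are secreted in latent form and, once released, bind the receptor kinase TGFBR2, which recruits and phosphorylates TGFBR1. The activated receptor phosphorylates SMAD2 and SMAD3, which enter the nucleus with SMAD4 and bind DNA at short SMAD boxes, while SMAD6 and SMAD7 restrain the pathway. In fat, TGF-β signalling is known for holding back adipocyte differentiation of progenitors and for driving matrix production.

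ATAC-seq marks accessible DNA by the insertion of a transposase. The deposited lists hold peaks that the authors call unique to one library, each with its position, a place class and an Ensembl gene ID, and without heights, scores or read numbers. Depth is therefore unknown. As neither group was replicated, no difference was tested and no p-value is given, and every interval below covers counting error only. Sites open in both groups are not listed, so a missing peak is no sign of closed chromatin. In bulk libraries a site open in fewer cells and a site less open in each cell cannot be told apart. A longer list can also come from more reads or a looser threshold, neither of which is given in the sources used here. Within 100 kb of the sorting markers, Pdgfra had 0 PDGFRα and 2 CD137 peaks and Tnfrsf9 had 1 PDGFRα and 2 CD137 peaks, so the lists give no check of the sort. Of 37 marker genes of 6 cell types, 22 had a PDGFRα peak and 31 a CD137 peak within 100 kb. Among all protein-coding genes, 56% had a PDGFRα peak and 66.8% a CD137 peak within that distance. The PDGFRα share of the peaks near these markers was lowest for early embryo markers (4 PDGFRα and 15 CD137 peaks, 21.1%). Immune markers came next (2 PDGFRα and 7 CD137 peaks, 22.2%). The share was highest for mesothelial markers (12 PDGFRα and 4 CD137 peaks, with 8 of the 12 at Wt1). The exact intervals for early embryo (6.05 to 45.6%) and immune markers (2.81 to 60.0%) include the 35.6% of the whole lists. That for mesothelial markers (47.6 to 92.7%) lies above it, but it counts the 8 peaks at Wt1 as if they were independent. Wt1 had no CD137 peak. Of the other mesothelial markers, Msln had 2 PDGFRα and 1 CD137 peaks, Upk3b 1 and 2, and Krt19 1 and 1, so the high share rests on Wt1. The part of other cell types in the values below was not tested.

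The class names up5k and down5k need care before they are read as upstream and downstream. Set against RefSeq strands, they followed the coordinate and not the direction of transcription, most clearly for peaks centred outside the gene. Of the up5k peaks whose centre lay outside the gene, 85.2% of 290 at minus-strand genes and 77.7% of 233 at plus-strand genes lay at the low-coordinate end. Of such down5k peaks, 0.575% of 174 at minus-strand genes and 0.474% of 211 at plus-strand genes lay there. With centres inside genes included, the split was weaker. Nearer to the low-coordinate end were 67.0% of 564 up5k peaks at minus-strand genes and 72.9% of 711 at plus-strand genes. For down5k these were 19.9% of 538 and 23.9% of 402. Classes are therefore given as deposited, and places are described by coordinate.

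**Figure D1:**
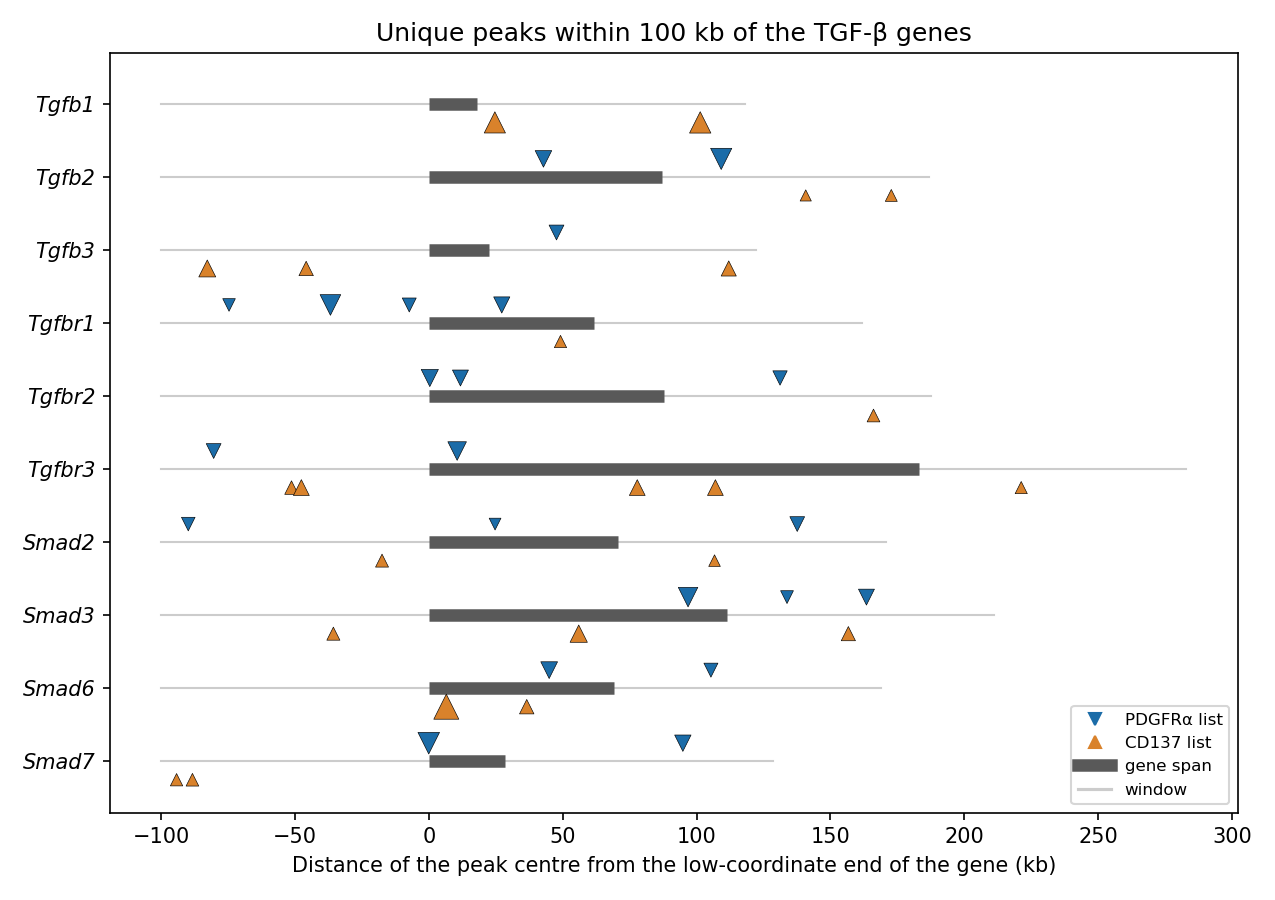
Peak centres in kb from the low-coordinate end of each TGF-β gene, with PDGFRα peaks above and CD137 peaks below the line of each gene and marker area in proportion to peak width. Thick bars are gene spans and thin lines the windows of 100 kb; Tgfb1 has no PDGFRα peak and 2 CD137 peaks, while Tgfbr1 has 4 PDGFRα peaks and 1 CD137 peak.

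The 10 genes were close to evenly covered by the lists, although the CD137 list is the longer one. The PDGFRα share of their peaks was 48.9% (22 of 45, exact 95% interval 33.7 to 64.2%). Over the remaining 22440 peaks it was 35.6%, a difference of 13.3 percentage points with a Newcombe 95% interval of -0.619 to 27.4. In the same windows around all 21887 protein-coding genes, peaks counted once per gene gave 40.5%. The interval of the TGF-β genes includes both shares, so a difference was not detectable with this number of peaks.

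A PDGFRα peak lay within 100 kb of 9 of the 10 genes, where 56% of protein-coding genes had one. A CD137 peak lay within 100 kb of all 10, against 66.8%, and peaks of both lists near 9, against 43.4%. A long gene has a wide window. Among protein-coding genes between 18.1 and 183 kb, the range of these 10, the shares were 62.5% for PDGFRα and 74.1% for CD137. The median length in that range was 41.1 kb, against 69.8 kb for these 10, so length is matched only in part. The share with peaks of both lists was not computed for that range. More PDGFRα than CD137 peaks were listed at 3 genes (Tgfbr1, Tgfbr2 and Smad2), as at 23.3% of protein-coding genes. Fewer were listed at 3 (Tgfb1, Tgfb3 and Tgfbr3), as at 43% of them, and the other 4 had equal numbers. These orders depend on the window. With centres within 50 kb, Tgfb3 had equal numbers, Tgfb2 had 2 more PDGFRα than CD137 peaks, Smad7 had 1 more, and Smad2 and Smad3 had 1 fewer. Within 5 kb, Tgfb1, Tgfb3, Tgfbr1 and Smad3 had equal numbers. There Tgfb2, Smad2 and Smad7 had 1 more PDGFRα than CD137 peak, Tgfbr2 kept 2 more, and Tgfbr3 and Smad6 had 1 fewer.

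**Figure D2:**
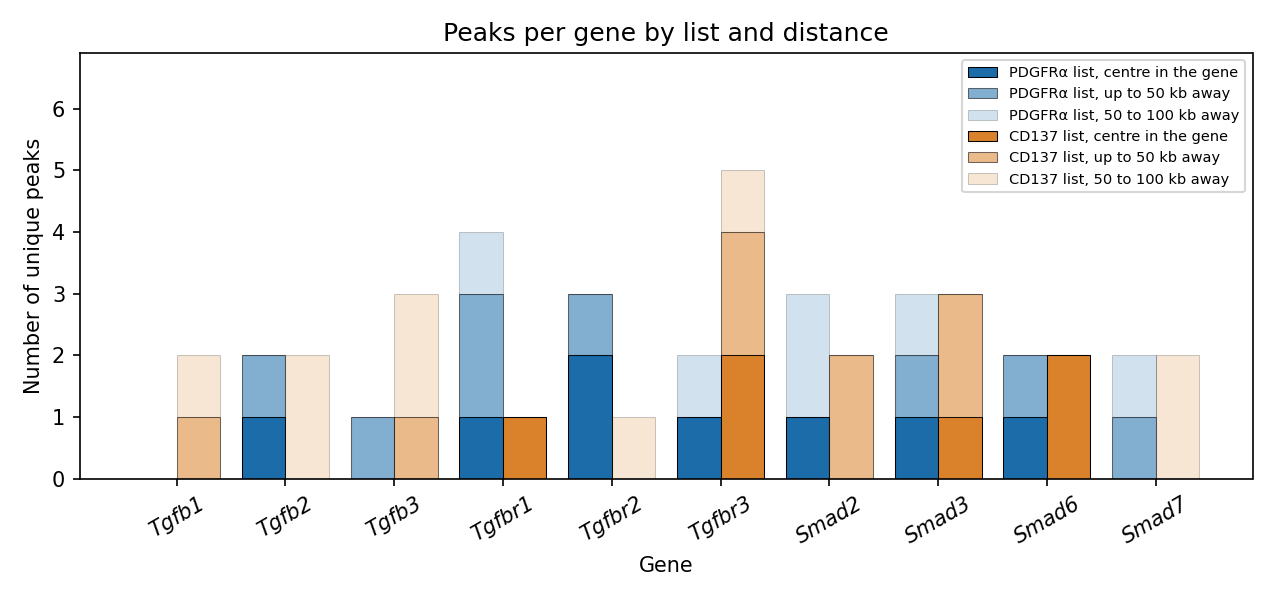
Number of unique peaks at each TGF-β gene, with the PDGFRα list left and the CD137 list right and shades for centres in the gene, up to 50 kb away and 50 to 100 kb away. The largest counts are the 4 PDGFRα peaks at Tgfbr1 and the 5 CD137 peaks at Tgfbr3.

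Inside the genes themselves, PDGFRα peaks were spread over most members. A PDGFRα peak had its centre in 7 of the 10 genes (Tgfb2, Tgfbr1, Tgfbr2, Tgfbr3, Smad2, Smad3 and Smad6), where 13.2% of all protein-coding genes and 20.3% of those in the same length range had one. A CD137 peak lay in 4 (Tgfbr1, Tgfbr3, Smad3 and Smad6), against 17.3% of all protein-coding genes and 26% of those in the length range. By median the 10 genes are longer than that range (69.8 against 41.1 kb), so its shares match them for length only in part. Tgfb2, Tgfbr2 and Smad2 held PDGFRα peaks only, which is so of 6.81% of protein-coding genes, and none of the 10 held CD137 peaks only, which is so of 10.9%. Both percentages are over genes of all lengths, with a median of 17.2 kb, and were not computed for the length range. The genes span 0.739 Mb in sum and held 8 PDGFRα and 6 CD137 peaks. Per Mb of gene this is 10.8 PDGFRα peaks (exact Poisson 95% interval 4.67 to 21.3) and 8.12 CD137 peaks (2.98 to 17.7). Over genes of the same length range the densities were 4.58 PDGFRα and 6.57 CD137 peaks per Mb. The PDGFRα interval lies just above the density of those genes and the CD137 interval includes it. The members were chosen with earlier results of these data known, so the densities describe these genes and test nothing.

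**Figure D3:**
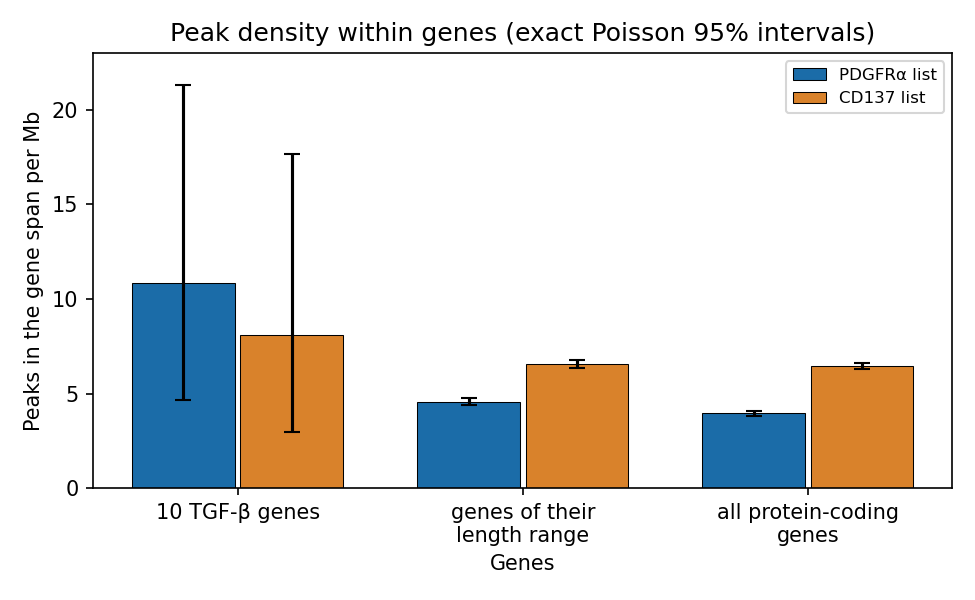
Peaks with their centre inside the gene per Mb of summed gene span, with the PDGFRα list left of the CD137 list and exact Poisson 95% intervals for counting error only. The 10 TGF-β genes had 10.8 PDGFRα and 8.12 CD137 peaks per Mb, against 4.58 PDGFRα and 6.57 CD137 peaks per Mb over genes of their length range.

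The ligand genes had 3 PDGFRα and 7 CD137 peaks at 3 genes. The PDGFRα share of 30% (exact interval 6.67 to 65.2%) has an interval that includes the 40.5% of all protein-coding genes. Tgfb1 encodes the ligand most studied in fibrosis and lies on chromosome 7 at 25687002 to 25705077. It had no PDGFRα peak in its window. Its 2 CD137 peaks, of class up5k, lay on the high-coordinate side at 25710349 to 25712942 (2593 bp, 6.57 kb from the gene) and 25787064 to 25789692 (2628 bp, 83.3 kb). Both were wide for their list, where 98.4% and 98.5% of peaks were narrower. Neither is nearest to Tgfb1, since the first lies in Ccdc97 and the second in Axl, and 11 other protein-coding genes reach into this window.

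Tgfb2, on the minus strand of chromosome 1 at 186622787 to 186709697, had its PDGFRα peaks near and its CD137 peaks far. The PDGFRα peaks, both of class intron, lay inside the gene at 186664796 to 186666379 (1583 bp) and 22.3 kb away at 186730712 to 186733302 (2590 bp), where the outer one is within the neighbouring gene Rrp15. The CD137 peaks were intergenic and narrow, at 186763228 to 186763948 (720 bp, 53.9 kb away) and 186795146 to 186795968 (822 bp, 85.9 kb away). Of the CD137 list, 0.829% and 4.33% of peaks were narrower than these. All 4 peaks lay within the gene or on its start side.

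Tgfb3, on chromosome 12 at 86056743 to 86079041, had 1 PDGFRα and 3 CD137 peaks, none of them inside the gene. The PDGFRα peak, of class intron, lay 25.3 kb away in Ift43 at 86103680 to 86104956 (1276 bp). Of the CD137 peaks, those at 86010279 to 86011478 (1199 bp, 45.9 kb) and 85973100 to 85974759 (1659 bp, 82.8 kb) were in introns of Ttll5. The remaining CD137 peak, at 86168115 to 86169434 (1319 bp, 89.7 kb), was intergenic. No peak near Tgfb3 had Tgfb3 as its nearest protein-coding gene.

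The genes of the signalling receptor pair had 7 PDGFRα and 2 CD137 peaks. The PDGFRα share was 77.8% (exact interval 40.0 to 97.2%). This interval includes the 40.5% of all protein-coding genes, counted in the same windows, by a narrow margin and lies above the 35.6% of the whole lists. The pair was singled out after its values were seen, so neither comparison is a test. Tgfbr1 encodes the type I receptor kinase and lies on the plus strand of chromosome 4 at 47353222 to 47414926. Its 4 PDGFRα peaks formed a row across the gene start. They lay at 47278080 to 47278996 (916 bp, intron, 74.7 kb away), 47315193 to 47317651 (2458 bp, down5k, 36.8 kb), 47345314 to 47346440 (1126 bp, intergenic, 7.35 kb) and 47379691 to 47381195 (1504 bp, intron, inside the gene). The first lies in the collagen gene Col15a1, which is also the gene nearest to the second. The only CD137 peak, 870 bp wide and of class intron, lay inside Tgfbr1 at 47401754 to 47402624. It was 20.6 kb from the nearest PDGFRα peak, and 7.58% of CD137 peaks were narrower.

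RefSeq gives Tgfbr1 a pair of start sites, and no unique peak covers either of them. Both windows are shown because PDGFRα peaks lie close to each, with an edge 6.53 kb from the first window and 4.77 kb from the second. The windows run from 250 bases before to 50 bases after the start on GRCm38.p6 (mm10), 5′ to 3′ on the plus strand. Capitals mark the SMAD box CAGAC on either strand.
Tgfbr1, chr4:47352972-47353271, plus strand: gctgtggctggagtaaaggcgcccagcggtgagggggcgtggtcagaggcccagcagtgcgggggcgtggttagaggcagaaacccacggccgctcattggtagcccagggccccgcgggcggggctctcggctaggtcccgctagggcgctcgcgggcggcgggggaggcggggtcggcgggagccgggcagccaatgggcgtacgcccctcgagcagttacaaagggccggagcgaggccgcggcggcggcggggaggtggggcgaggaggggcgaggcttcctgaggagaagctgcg
Tgfbr1, chr4:47385966-47386265, plus strand: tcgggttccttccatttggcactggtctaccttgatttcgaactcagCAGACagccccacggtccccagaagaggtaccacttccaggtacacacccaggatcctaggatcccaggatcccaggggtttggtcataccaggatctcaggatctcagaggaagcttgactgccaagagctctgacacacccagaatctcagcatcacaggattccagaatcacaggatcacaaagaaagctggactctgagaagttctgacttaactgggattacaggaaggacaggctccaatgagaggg
The first window is rich in CpG, with 34 CpG and 74.7% G or C, against medians of 7 and 52.7% over 32851 RefSeq windows of this length. The second has 3 CpG and 52.0% G or C. It holds 1 CAGAC and the first none, and 49.6% of all windows hold at least 1.

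Tgfbr2 encodes the type II receptor that binds the ligand first, and lies on the minus strand of chromosome 9 at 116087695 to 116175363. It had 3 PDGFRα peaks, all with Tgfbr2 as the nearest gene, and 1 CD137 peak. The PDGFRα peaks lay at 116087178 to 116088880 (1702 bp, up5k) and 116098741 to 116100215 (1474 bp, intron), both inside the gene under ENSMUSG00000032440, and at 116218300 to 116219486 (1186 bp, intergenic, 43.5 kb away). The CD137 peak, at 116253282 to 116254222 (940 bp, intergenic), lay 78.4 kb away on the same side. The peak of class up5k lay over the low-coordinate end of Tgfbr2, which is the 3′ end of this minus-strand gene, and its centre was 87.3 kb from the RefSeq start. The start window is shown because it is the site that this class name would point to. Its nearest PDGFRα peak was 42.7 kb away and its nearest CD137 peak 77.7 kb away, and capitals again mark CAGAC.
Tgfbr2, chr9:116175314-116175613, minus strand: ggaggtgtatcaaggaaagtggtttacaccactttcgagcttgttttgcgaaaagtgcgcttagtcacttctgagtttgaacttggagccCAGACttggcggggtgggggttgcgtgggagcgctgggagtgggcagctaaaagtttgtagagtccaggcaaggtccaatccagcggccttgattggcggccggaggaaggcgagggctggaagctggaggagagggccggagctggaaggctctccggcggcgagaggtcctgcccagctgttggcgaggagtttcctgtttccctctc
It holds 1 CAGAC, 15 CpG and 59.0% G or C.

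Tgfbr3 encodes betaglycan, a co-receptor that presents ligands, above all TGF-β2, to TGFBR2. It is the longest of the 10 genes (chromosome 5, 107106567 to 107289629) and had 2 PDGFRα and 5 CD137 peaks. The PDGFRα peaks lay inside the gene at 107116124 to 107118113 (1989 bp, intron) and 80.4 kb away at 107025499 to 107026767 (1268 bp, intergenic). Farther inside the gene lay CD137 peaks at 107183704 to 107185139 (1435 bp, intron) and 107212898 to 107214329 (1431 bp, intron). The intergenic CD137 peaks at 107054697 to 107055753 (1056 bp, 51.3 kb) and 107058182 to 107059631 (1449 bp, 47.7 kb) were 2.43 kb apart. The fifth, at 107327457 to 107328312 (855 bp, up5k, 38.3 kb), was nearest to Brdt. Tgfbr3 was the receptor gene with more CD137 than PDGFRα peaks.

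The SMAD genes had 10 PDGFRα and 9 CD137 peaks, a PDGFRα share of 52.6% (28.9 to 75.6%). Smad2 and Smad3 encode the SMADs that the TGF-β receptor phosphorylates. Smad2, on chromosome 18 at 76241090 to 76311748, had 3 PDGFRα and 2 CD137 peaks. The PDGFRα peaks lay inside the gene at 76265411 to 76266214 (803 bp, intron), and at 76378087 to 76379344 (1257 bp, intergenic, 67.0 kb) and 76150644 to 76151710 (1066 bp, down5k, 89.9 kb). Both CD137 peaks were intergenic, at 76223091 to 76224061 (970 bp, 17.5 kb) and 76347424 to 76348201 (777 bp, 36.1 kb). These flanked the gene, 1 on each side, while the outer PDGFRα peaks lay beyond them. Of the PDGFRα list, 3.14% was narrower than the peak inside Smad2, and of the CD137 list 17.8% and 2.33% were narrower than the nearer and the farther CD137 peak.

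Smad3, on the minus strand of chromosome 9 at 63646766 to 63757994, had 3 peaks of each list. The PDGFRα peaks lay inside the gene at 63742499 to 63744698 (2199 bp, exon), and at 63780100 to 63781046 (946 bp, intergenic, 22.6 kb) and 63809521 to 63810986 (1465 bp, intergenic, 52.3 kb). The CD137 peaks lay inside the gene at 63701882 to 63703606 (1724 bp, intron), and at 63802910 to 63804075 (1165 bp, intergenic, 45.5 kb) and 63610575 to 63611562 (987 bp, intron of Aagab, 35.7 kb). All 3 PDGFRα peaks were on the start side of the inner CD137 peak, with the exonic one 14.4 kb downstream of the RefSeq start. The outer peaks at 63802910 and 63809521 left a gap of 5.45 kb, the smallest between the lists in any of the 10 windows.

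Smad6 and Smad7 encode the inhibitory SMADs and had 4 peaks of each list in sum. Smad6, on the minus strand of chromosome 9 at 63953076 to 64022085, had PDGFRα peaks inside at 63997202 to 63998820 (1618 bp, intron) and 36.4 kb away at 64057883 to 64059018 (1135 bp, intergenic). Its CD137 peaks were both inside, at 63957772 to 63961389 (3617 bp, intron) and 63989028 to 63990232 (1204 bp, exon). The first of these was the widest of the 45 peaks, and 99.6% of the CD137 list was narrower. The inner PDGFRα peak and the exonic CD137 peak were 6.97 kb apart, with the PDGFRα peak nearer to the start (24.0 kb) than the CD137 peaks (32.4 and 62.5 kb).

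The start window of Smad6 is shown because it was the only one among the members' windows in the RefSeq table with the SMAD palindrome GTCTAGAC, which 0.213% of the 32851 windows hold. No unique peak covers it, and the nearest PDGFRα and CD137 peaks were 23.2 and 31.8 kb away. Capitals mark the palindrome, which begins 4 bases before the RefSeq start and contains the shorter box GTCT on both strands.
Smad6, chr9:64022010-64022309, minus strand: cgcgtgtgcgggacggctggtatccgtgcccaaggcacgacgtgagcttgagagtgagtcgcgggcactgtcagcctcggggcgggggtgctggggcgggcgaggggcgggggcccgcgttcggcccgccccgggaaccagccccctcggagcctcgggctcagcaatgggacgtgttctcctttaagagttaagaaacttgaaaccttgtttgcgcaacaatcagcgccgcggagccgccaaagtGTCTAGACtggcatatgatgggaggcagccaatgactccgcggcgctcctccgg
The window has 31 CpG and 66.3% G or C. The letters say nothing on whether a SMAD binds there.

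Smad7, a feedback inhibitor that TGF-β itself induces, lies on chromosome 18 at 75367365 to 75395935. It had 2 peaks of each list, at very different distances. The PDGFRα peak at 75365963 to 75368644 (2681 bp, up5k) covers the low-coordinate end of the gene, from 1402 bp before it to 1279 bp after it, and 98.5% of the PDGFRα list was narrower. The other PDGFRα peak, at 75461481 to 75463028 (1547 bp, intron of Ctif), was 66.3 kb away. The CD137 peaks, at 75278546 to 75279473 (927 bp, 88.4 kb) and 75272638 to 75273519 (881 bp, 94.3 kb), lay in introns of Dym. The PDGFRα peak over the end of Smad7 and the up5k peak of Tgfbr2 were the only ones of the 45 to cover an end of a TGF-β gene. At Tgfbr2 this is the 3′ end. Smad7 had no entry among the RefSeq start windows used for strand, so whether its peak covers the start or the 3′ end was not determined here.

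Start windows were matched by symbol for 6 of the 10 genes (Tgfb1, Tgfb2, Tgfbr1, Tgfbr2, Smad3 and Smad6), 7 windows in all. No unique peak overlapped any of them by 1 bp. Tgfb3, Tgfbr3, Smad2 and Smad7 had no start window, so their starts, and the peak over an end of Smad7, are not covered by this count. Over all 32851 windows, 1.70% lay under a PDGFRα peak and 2.61% under a CD137 peak, so an absence from 7 windows is near the background. The motifs were searched on both strands. None of the 7 windows held the AP-1 motif TGANTCA, the glucocorticoid element (GNACA and TGTNC with 3 bases between) or the TEAD motif GGAATG, which 7.81%, 0.475% and 14.7% of all windows hold. CAGAC, which overlaps the reverse of GTCT, occurred in 3 windows, with 2 copies at Tgfb2. GTCT occurred in 6 of the 7, and 88.0% of all windows hold it.

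By their medians, PDGFRα peaks lay nearer to the TGF-β genes than CD137 peaks did. The median distance from the gene was 22.4 kb (quartiles 0 and 50.1 kb) for the 22 PDGFRα peaks and 45.5 kb (3.28 and 80.6 kb) for the 23 CD137 peaks. Around all protein-coding genes the medians were 37.6 kb for PDGFRα and 38.0 kb for CD137 peaks. Inside the gene lay 36.4% of the PDGFRα peaks (17.2 to 59.3%) and 26.1% of the CD137 peaks (10.2 to 48.4%), where all genes gave 18.8% for PDGFRα and 20.9% for CD137. A longer gene fills more of its window, and the median length was 69.8 kb for the 10 genes and 17.2 kb for all. The medians and in-gene percentages of all genes are thus not matched for length. The PDGFRα share was 57.1% inside the genes (8 of 14, 28.9 to 82.3%), 50% up to 50 kb away (8 of 16) and 40% between 50 and 100 kb (6 of 15). Over all protein-coding genes these shares were 38.0%, 41.9% and 40.2%, and each lies in the interval of the TGF-β genes.

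**Figure D4:**
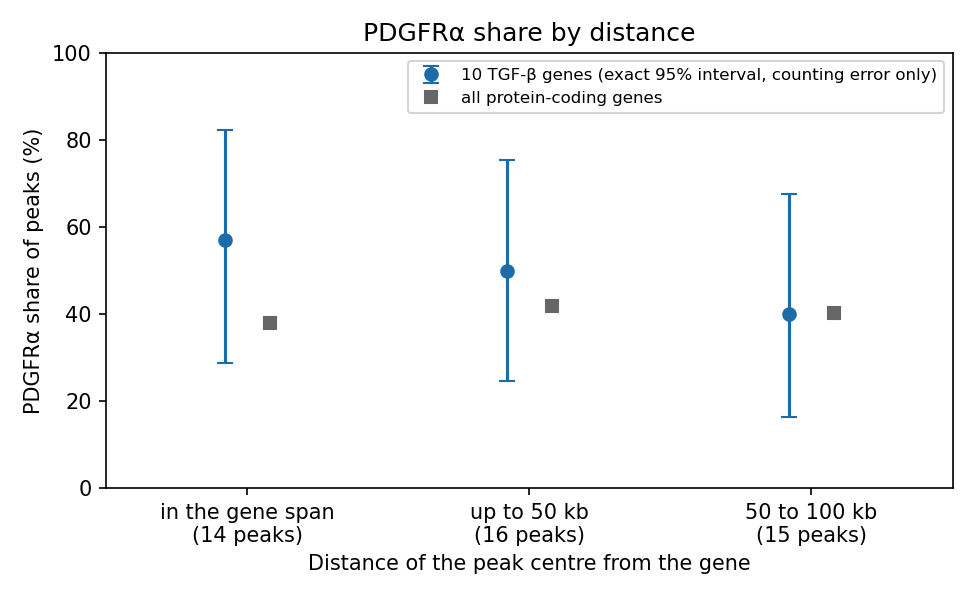
PDGFRα share of the peaks in percent against the distance of the peak centre, for the 10 TGF-β genes (circles, exact 95% intervals) and all protein-coding genes (squares). The shares of 57.1%, 50% and 40% have intervals that include the values of all genes.

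Not every peak in these windows belongs to its TGF-β gene by nearness. Of the 45 peaks, 27 had the TGF-β gene as the nearest protein-coding gene, 15 of 22 PDGFRα peaks (68.2%) and 12 of 23 CD137 peaks (52.2%). The remaining 18 lay in or nearer to another gene, so that their window assignment is by distance alone. The median gap to a peak of the opposite list was 48.3 kb for PDGFRα peaks and 41.4 kb for CD137 peaks, against 43.4 kb in the whole PDGFRα list and 93.0 kb in the whole CD137 list. Peaks of the opposite list within 10 kb were found for 2 PDGFRα and 2 CD137 peaks, those at Smad3 and Smad6. These are 9.09% of the PDGFRα and 8.70% of the CD137 peaks near the TGF-β genes, against 17.96% of the whole PDGFRα list and 10.2% of the whole CD137 list. The whole lists are not limited to windows around genes, and gaps were not computed for the windows of other genes. The gap values are thus not matched, and no trait of the TGF-β genes can be read from them.

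The median widths of the peaks were further apart than those of the whole lists. The median was 1469.5 bp for the PDGFRα peaks (quartiles 1148 and 1681 bp) and 1165 bp for the CD137 peaks (904 and 1442 bp), where the whole PDGFRα list had 1237 bp and the whole CD137 list 1221 bp. Above the upper quartile of their own list lay 12 of the 22 PDGFRα peaks (54.5%) and 8 of the 23 CD137 peaks (34.8%). Below the lower quartile lay 3 PDGFRα peaks (13.6%) and 10 CD137 peaks (43.5%). Narrow CD137 peaks were mostly outside the genes, where the median was 987 bp for 17 peaks, against 1433 bp for the 6 inside. The lists give no heights, so width says nothing of how open a site was.

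**Figure D5:**
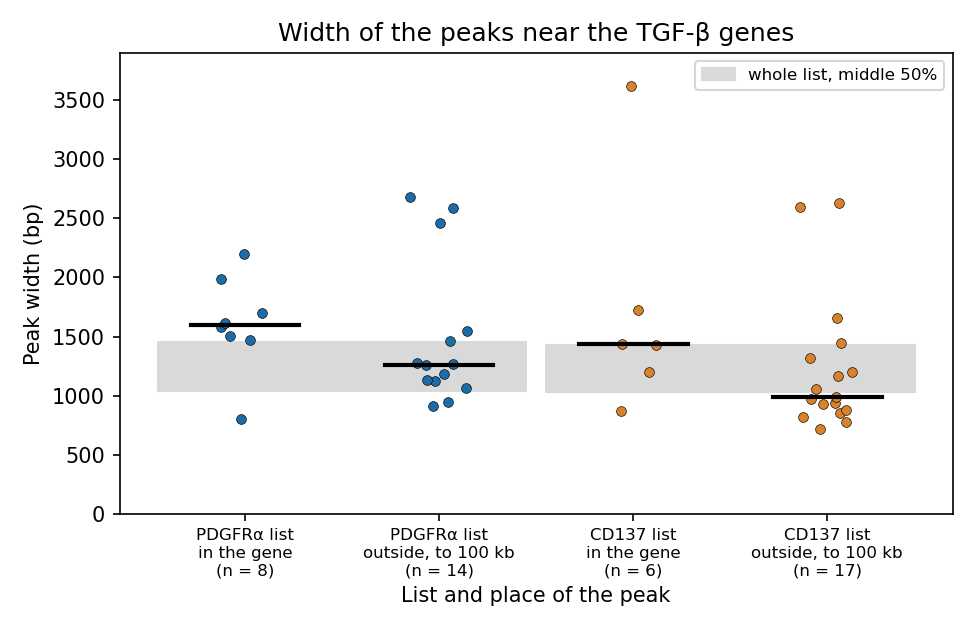
Width in bp of each peak near the TGF-β genes, for the PDGFRα list (left) and the CD137 list (right), inside the genes and outside them, with black lines at the medians and grey bands for the middle 50% of each whole list. The medians inside the genes are 1600.5 bp (8 PDGFRα peaks) and 1433 bp (6 CD137 peaks), and outside them 1262.5 bp (14 PDGFRα peaks) and 987 bp (17 CD137 peaks).

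Place classes did not differ detectably from those of the lists. Introns held 10 of the 22 PDGFRα peaks (45.5%, Wilson 95% interval 26.9 to 65.3%) and 10 of the 23 CD137 peaks (43.5%, 25.6 to 63.2%), against 33.6% of the PDGFRα list and 31.7% of the CD137 list. Intergenic peaks were 7 PDGFRα (31.8%, 16.4 to 52.7%) and 9 CD137 (39.1%, 22.2 to 59.2%), against 38.7% of the PDGFRα list and 45.3% of the CD137 list. The class up5k held 2 PDGFRα and 3 CD137 peaks (9.09% and 13.0%), against 11.1% of the PDGFRα list and 8.64% of the CD137 list. The class down5k held 2 PDGFRα peaks (9.09%) and 0 of 23 CD137 peaks (upper Wilson limit 14.3%), against 7.57% of the PDGFRα list and 7.22% of the CD137 list. The class exon held 1 peak each, at Smad3 for PDGFRα (4.55%) and at Smad6 for CD137 (4.35%), against 9.12% of the PDGFRα list and 7.17% of the CD137 list. Every whole-list share lies in the interval of the members.

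The other genes of the pathway had more CD137 than PDGFRα peaks, as the lists do. The 72 genes that act around these 10 had 91 PDGFRα and 157 CD137 peaks within 100 kb, a PDGFRα share of 36.7% (30.7 to 43.0%). The 10 genes exceeded this by 12.2 percentage points, with an interval of -3.04 to 27.4 that includes 0. Of the 72 genes, 16 had more PDGFRα than CD137 peaks, 41 fewer, 12 equal numbers and 3 no peak. Over all protein-coding genes, 23.3% had more PDGFRα than CD137 peaks and 43% had fewer. Genes of ligand storage and activation gave 21 PDGFRα and 42 CD137 peaks at 14 genes. Ltbp1, which anchors latent TGF-β in the matrix, had 3 PDGFRα and 10 CD137 peaks, and Thbs1, an activator of latent TGF-β, had 3 PDGFRα and 5 CD137 peaks. The activating integrin gene Itgb6 had 4 and Fmod, a proteoglycan that binds TGF-β, had 6 CD137 peaks, both without a PDGFRα peak.

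Further receptors and co-receptors of the TGF-β superfamily gave 9 PDGFRα and 18 CD137 peaks at 10 genes, with 1 PDGFRα and 6 CD137 peaks at the activin receptor gene Acvr1b. Other SMADs and their partners gave 30 PDGFRα and 44 CD137 peaks at 20 genes. Smad4, the common partner of SMAD2 and SMAD3, had 3 of each. Ski, a repressor of SMAD complexes, had 4 PDGFRα peaks and no CD137 peak, the repressor gene Tgif1 had 3 PDGFRα and 4 CD137 peaks, and Ldlrad4, an inhibitor of SMAD2 and SMAD3 activation, had 5 PDGFRα and 3 CD137 peaks. The ubiquitin ligase genes Smurf1, Smurf2 and Nedd4l, which also met the rule for named genes, had 0, 1 and 0 PDGFRα peaks and 4, 6 and 6 CD137 peaks. Kinases and adaptors outside the SMADs gave 14 of each list at 9 genes, among them the phosphatidylinositol 3-kinase subunit gene Pik3r1 with 3 PDGFRα and 4 CD137 peaks. Common target genes in mesenchyme gave 19 PDGFRα and 40 CD137 peaks at 19 genes. Among them the matrix gene Tgfbi had 2 PDGFRα and 4 CD137 peaks. The transcription factor gene Zeb1 had 4 PDGFRα and 6 CD137 peaks, and the factor genes Zeb2 and Snai1 had 3 CD137 peaks each and no PDGFRα peak.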

How the data were processed

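The lists of unique peaks were used, 1 per ATAC-seq library, deposited by the authors with positions, a place class and an Ensembl gene ID, per the file headers. The submitters' processing notes name CASAVA 1.8 and build mm10 but not what either was used for. The aligner, caller, threshold and rule for unique peaks were not given in the sources used here. Nor was it stated whether starts count from 0 or 1, and positions are printed as deposited.

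Gene spans, strands and start windows came from RefSeq tables of GRCm38.p6. Distances run from the peak centre to the gene span. Nearest genes are protein-coding. An Ensembl ID was linked to a gene, for the strand comparison only, when at least 80% of its peaks lay in or within 5 kb of it (6144 of 7163 IDs). Intervals are exact binomial, Wilson, Newcombe or exact Poisson at 95%. With 1 library per group nothing was tested. Window counting was tested on simulated data. All 10 members are named. Of the 72 other pathway genes, the 12 with the most peaks were named, and those with at least 3 peaks of one list and 0 of the other. The members and gene lists were chosen with earlier results of these data known, and the start windows shown were chosen after the peaks were seen. Computations used Python 3.11.15, pandas 2.3.3, scipy 1.17.1 and statsmodels 0.14.6.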

Additional observations from a re-analysis of the deposited data

How the results depend on the processing

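No paired analysis was possible because each group has a single library, and none was left out in turn. Unknown depth limits every count. Just inside the limit of 100 kb was a CD137 peak 94.3 kb from Smad7, and just outside it a PDGFRα peak 103.7 kb from Tgfbr2.

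The PDGFRα share lay between 40% and 62.5% in 11 of 12 alternatives. It was 66.7% (exact interval 48.2 to 82.0%) with only the widest CD137 peaks, as many as PDGFRα peaks, where the lists themselves give 50% by construction. PDGFRα peaks numbered 10 within 10 kb, 9 within 5 kb, 8 inside the genes and 2 for the class up5k, and CD137 peaks 7, 6, 6 and 3 in these settings. CD137 peaks alone moved by more than 1.5 times to 14 within 50 kb, 36 within 200 kb, 12 where the TGF-β gene was nearest, 11 among the widest, 9 in the wider 50% of each list and 14 without intergenic peaks. In these settings PDGFRα peaks numbered 16, 33, 15, 22, 15 and 15, changes of up to 1.5 times. The setting of the widest peaks trims only the CD137 list, so PDGFRα peaks could not change in it. Genes with a PDGFRα peak numbered 2 for the class up5k. Genes with a CD137 peak numbered 5 within 10 kb, 4 within 5 kb, 4 inside the gene, 6 where the gene was nearest, 5 among the widest, 5 in the wider 50% and 2 for up5k. The difference at Smad2, PDGFRα minus CD137, was -1 within 50 kb, against 1 within 100 kb, because fewer peaks are counted. It was again 1 within 10 kb, within 5 kb and inside the gene, 2 within 200 kb, and 0 where Smad2 was the nearest gene and for the class up5k. Of the differences at single genes, 50 of 120 under these alternatives equalled the reported one, 69 changed in size, some of them to or from 0, and 1 changed sign.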
